A study of Mus musculus with 32 samples.

Results

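T cell transcripts are described here in RNA-seq libraries of macrophages sorted from mouse fat. The 10 transcripts are Cd3d, Cd3e, Cd3g, Cd247, Lck, Cd2, Cd5, Cd4, Cd8a and Cd8b1, taken by symbol from 24421 genes in each count file. They were selected with their measured levels and their shared variation between libraries already known, so both are given as a description, without a test. All 10 passed the filter on low counts that left 13453 genes for testing. Every library came from epididymal adipose tissue of C57BL/6J mice. The mice either lacked A20 in myeloid cells (KO) or were wild type (WT), and for 12 weeks they had been kept on either a standard diet, SD, or a high fat diet, HFD. Cells were sorted into CD11c+ macrophages (CD206 low, CD11c high) and CD206+ macrophages (CD206 high, CD11c low), which gave 8 groups of 4 libraries. A20, encoded by Tnfaip3, is an enzyme that restrains inflammatory signalling. The sources used here do not name the promoter that drove the deletion, the age of the mice or any marker used to remove lymphocytes from the sort. Whether replicates are different animals is not stated either. The p-values therefore reflect variation among these libraries, part of which may be technical.

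Libraries held 1.76e+07 to 2.38e+07 counts on genes. Levels are counts scaled to a library total of 1e+06 (CPM), with library sizes adjusted by edgeR's trimmed mean of M-values (TMM). Tnfaip3 lay between 167 and 474 CPM in the 16 KO libraries and between 486 and 1647 CPM in the 16 WT libraries, with no overlap. CD11c+ libraries held 146 to 379 CPM of Itgax, which encodes CD11c, and CD206+ libraries 1.25 to 50.3 CPM. Mrc1, which encodes CD206, ran from 1290 to 2147 CPM in CD206+ libraries and from 401 to 722 CPM in CD11c+ libraries. The summed level of 10 macrophage markers was 22799 to 36492 CPM across all libraries. T cell transcripts were therefore measured on a large macrophage background. In bulk libraries, fewer T cells and less RNA per T cell cannot be told apart, and neither can transcripts of T cells and the same transcripts made by other cells.

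T cells recognise antigen with a receptor whose variable chains cannot signal by themselves. The CD3 gamma, delta and epsilon chains and the zeta chain (Cd247) carry the signalling motifs, and the kinase Lck, held at the co-receptors CD4 and CD8, phosphorylates them. CD4 marks helper and regulatory T cells, and CD8, a pair of an alpha and a beta chain, marks cytotoxic T cells. CD2 is an adhesion receptor and CD5 a damper of receptor signalling. Several of these transcripts are not private to T cells: Cd247, Lck and Cd2 are also made by natural killer (NK) cells, Cd5 by a subset of B cells, and Cd8a and Cd4 by subsets of mouse dendritic cells. T cells are a regular part of visceral fat and gather there in obesity.

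The 3 CD3 genes are neighbours. On GRCm38 (GENCODE M21), Cd3g spans chr9:44969572-44980431 on the minus strand, Cd3d chr9:44981786-44987339 on the plus strand and Cd3e chr9:44998740-45009627 on the minus strand, 40.1 kb in all. Cd3g and Cd3d are read in opposite directions from starts 1.36 kb apart. Cd8b1 (chr6:71322788-71337494, plus) and Cd8a (chr6:71373427-71379173, plus) also lie together, within 56.4 kb. Cd4 is at chr6:124864692-124888221 (minus), Cd247 at chr1:165788681-165877277 (plus), Lck at chr4:129548344-129573641 (minus), Cd2 at chr3:101275899-101287939 (minus) and Cd5 at chr19:10717116-10739002 (minus). All 10 are protein coding, and counts cover their annotated exons, coding and untranslated parts together. Exons of Cd247 overlap exons of Pou2f1 on the other strand and of Gm16565, exons of Cd3e overlap Gm48719 on the other strand, and exons of Lck hold Mir8119. No source used here states whether counting used strand, so reads of Cd247 and Cd3e cannot be told apart from those of their antisense partners. The 250 bases before the RefSeq start of the 3 CD3 genes are shown because the CD3 sum used below rests on these genes. For Cd3e that start lies inside the gene as placed above, so the last bases of its window fall within the gene. Sequences are from RefSeq (GRCm38.p6), which held such a window for 7 of the 10 genes, and are printed 5′ to 3′ on the strand of the gene.
Cd3g, chr9:44980432-44980681, minus strand: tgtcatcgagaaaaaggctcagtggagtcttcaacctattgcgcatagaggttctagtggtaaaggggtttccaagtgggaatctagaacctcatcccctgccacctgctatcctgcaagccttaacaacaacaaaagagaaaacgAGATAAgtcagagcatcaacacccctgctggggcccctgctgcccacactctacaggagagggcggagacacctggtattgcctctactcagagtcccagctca
Cd3d, chr9:44981536-44981785, plus strand: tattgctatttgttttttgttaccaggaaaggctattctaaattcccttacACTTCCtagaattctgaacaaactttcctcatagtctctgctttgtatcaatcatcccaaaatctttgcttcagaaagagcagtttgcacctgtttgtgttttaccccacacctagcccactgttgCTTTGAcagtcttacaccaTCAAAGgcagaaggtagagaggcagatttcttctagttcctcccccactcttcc
Cd3e, chr9:45009612-45009861, minus strand: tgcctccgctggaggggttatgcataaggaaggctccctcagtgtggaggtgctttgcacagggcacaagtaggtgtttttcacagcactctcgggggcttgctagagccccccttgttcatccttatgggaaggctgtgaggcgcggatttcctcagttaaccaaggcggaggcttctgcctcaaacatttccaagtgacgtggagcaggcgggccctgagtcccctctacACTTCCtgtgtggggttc
Capitals mark matches to 4 core motifs searched on both strands: TGTGGT of RUNX factors, AGATAA of GATA factors, CTTTGA of TCF/LEF factors and GGAAGT of ETS factors. No match overlapped another. The Cd3g window held 1 match, to the GATA motif. The Cd3d window held 3 matches, 1 to the ETS motif and 2 to the TCF/LEF motif, and the Cd3e window held 1 match, to the ETS motif. Of 32851 mouse promoter windows of the same length, 19.7% held the ETS motif, 14.0% the RUNX motif, 13.8% the TCF/LEF motif and 9.99% the GATA motif. No motif was shared by all 3 windows.

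The CD3 chains were low in every library and higher in KO than in WT libraries of the same population and diet. The summed CPM of Cd3d, Cd3e and Cd3g, called the CD3 sum below, was 13.9 ± 6.62 in CD11c+ and 21.4 ± 13.3 in CD206+ macrophages of KO mice on HFD (mean ± SD, n = 4 libraries here and for every group mean below). In WT mice on HFD it was 1.35 ± 0.804 in CD11c+ and 2.94 ± 1.56 in CD206+ macrophages. On SD it was 11.1 ± 7.55 and 13.2 ± 8.74 in KO, against 4.03 ± 1.82 and 1.96 ± 1.54 in WT, CD11c+ first. The spread within KO groups was more than 3-fold from the lowest to the highest library.

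By library, the CD3 sum of CD11c+ macrophages on HFD was 5.56, 14.0, 21.8 and 14.4 CPM in KO replicates 1 to 4, and 1.63, 0.830, 2.35 and 0.579 CPM in WT. The lowest KO library was above the highest WT library, and the ratio of the means was 10.3. On SD, CD11c+ macrophages had 7.58, 7.89, 6.63 and 22.4 CPM in KO and 2.32, 4.34, 2.99 and 6.45 CPM in WT. Here the ratio was 2.77, and the groups came within a narrow gap of each other, 6.63 against 6.45 CPM. The mean of that KO group was 7.37 CPM without replicate 4, and the ratio then 1.83.

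In CD206+ macrophages on HFD the CD3 sum was 14.1, 8.96, 39.2 and 23.2 CPM in KO and 4.50, 1.37, 4.05 and 1.85 CPM in WT, a ratio of means of 7.26. On SD it was 14.4, 6.46, 6.72 and 25.0 CPM in KO and 1.00, 4.26, 1.43 and 1.15 CPM in WT, a ratio of 6.72. Again no KO library was as low as any WT library of its own comparison. Replicate 2 stood apart among the WT libraries on SD, and their mean was 1.19 CPM without it, which raises the ratio to 11.04. Across all groups the ranges did overlap, since KO libraries ran from 5.56 to 39.2 CPM and WT libraries from 0.579 to 6.45 CPM. The order of the group means was CD206+ KO HFD, CD11c+ KO HFD, CD206+ KO SD, CD11c+ KO SD, CD11c+ WT SD, CD206+ WT HFD, CD206+ WT SD and CD11c+ WT HFD. Libraries of each group overlapped those of its neighbour in this order, except between CD11c+ KO SD and CD11c+ WT SD.

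**Figure D1:**
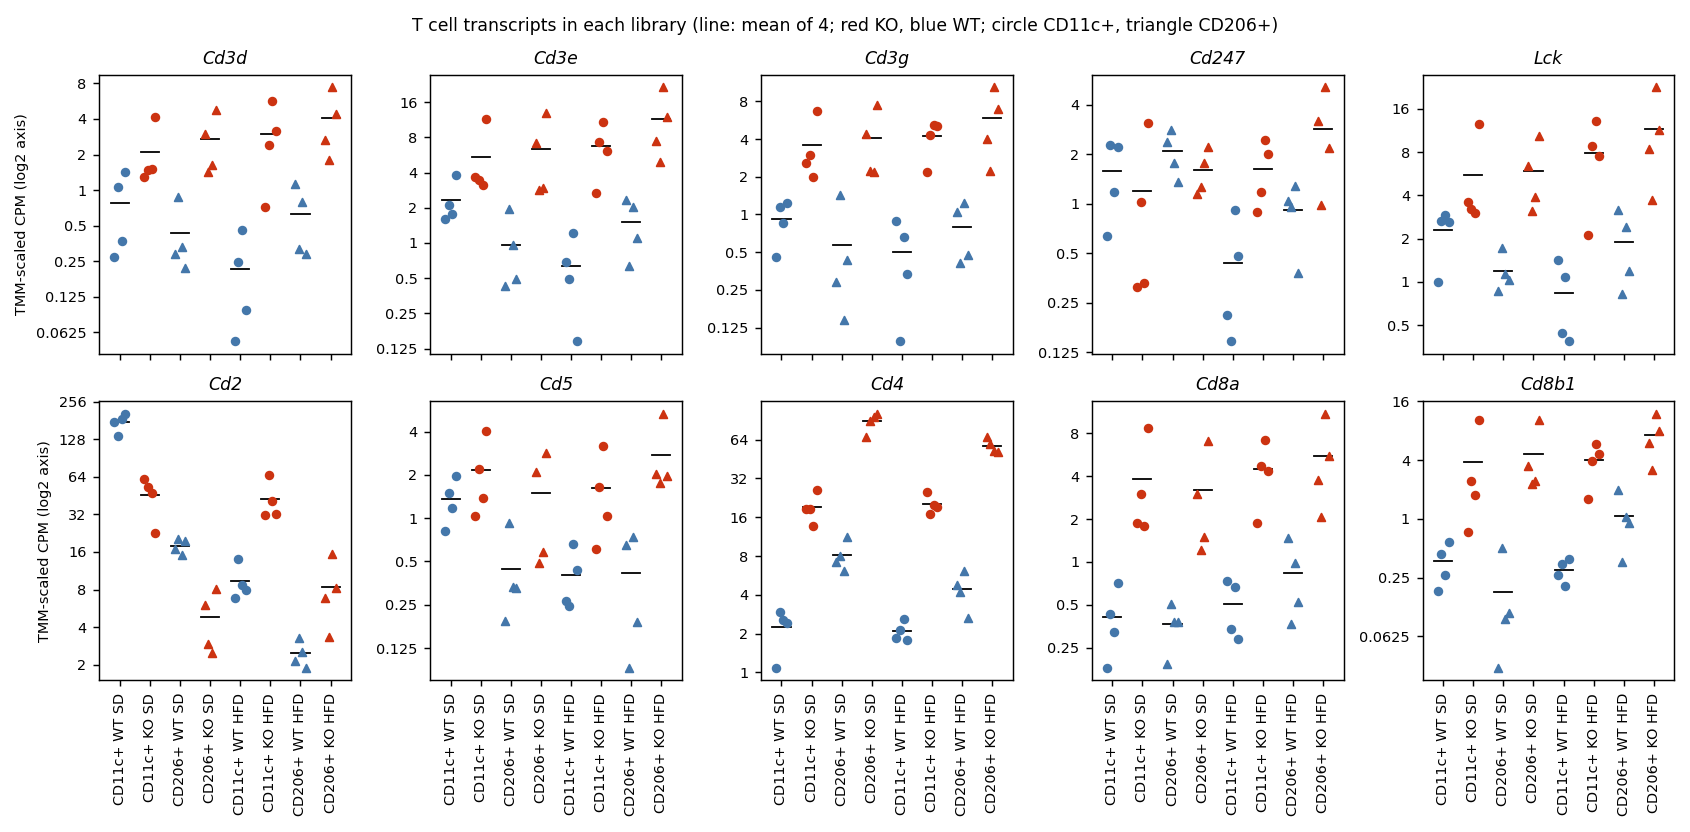
Level of each of the 10 T cell transcripts in every library, as TMM-scaled CPM on a log2 axis, by group. Points are libraries and lines are means of 4; the 1 library with 0 counts of Cd8b1 is drawn at the foot of its panel. The CD3 chains, Lck, Cd8a and Cd8b1 are higher in KO than in WT libraries of the same population and diet on average, while Cd2 is highest in CD11c+ WT SD libraries and Cd4 in CD206+ KO libraries.

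The 3 chains had higher means in KO in all 4 comparisons, but in CD11c+ macrophages on SD the KO and WT libraries overlapped for Cd3d and Cd3e. Cd3d, the delta chain, ranged from 0.723 to 7.43 CPM in KO and from 0.0527 to 1.43 CPM in WT libraries, the lowest of which rested on 1 count. Cd3e, the epsilon chain that pairs with either of the others, ranged from 2.67 to 21.4 CPM in KO and from 0.145 to 3.78 CPM in WT. Cd3g, the gamma chain, ranged from 1.99 to 10.4 CPM in KO and from 0.0976 to 1.43 CPM in WT, without overlap across all 32 libraries. Per kilobase of exon, the 3 chains had similar levels in CD11c+ KO libraries on HFD: 1.64 CPM for Cd3d, 1.66 CPM for Cd3e and 1.28 CPM for Cd3g. The zeta chain behaved otherwise. Mean Cd247 was 3.71 times as high in KO as in WT in CD11c+ and 3.13 times as high in CD206+ macrophages on HFD, but 0.756 and 0.765 times as high on SD. Without CD11c+ WT HFD replicate 3 the first ratio was 5.82, and without CD11c+ KO SD replicate 4 that of CD11c+ on SD was 0.353. Its libraries overlapped between genotypes in all 4 comparisons, from 0.311 to 5.11 CPM in KO and from 0.146 to 2.82 CPM in WT. On SD, CD206+ WT macrophages had 2.39, 2.82, 1.76 and 1.36 CPM of Cd247 beside CD3 sums of 1.00, 4.26, 1.43 and 1.15 CPM.

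Lck, the kinase that starts receptor signalling, was at 2.11, 8.79, 13.1 and 7.49 CPM in CD11c+ KO libraries on HFD and at 1.42, 0.439, 1.07 and 0.386 CPM in WT. In CD206+ libraries on HFD it was at 8.35, 3.71, 22.7 and 11.5 CPM in KO and at 3.16, 0.823, 2.42 and 1.19 CPM in WT. KO and WT did not overlap in either population. The ratios of means were 9.49 and 6.09 on HFD, and 2.43 in CD11c+ and 4.996 in CD206+ macrophages on SD, again with no overlap. Without CD11c+ KO SD replicate 4 the 2.43 became 1.42. Cd5 was higher in every KO than in every WT library only in CD206+ macrophages on HFD among the 4 comparisons, with a mean of 2.76 ± 1.72 against 0.418 ± 0.325 CPM. Its ratios of means elsewhere were 4.02 in CD11c+ HFD, 1.59 in CD11c+ SD and 3.38 in CD206+ SD (5.29 without CD206+ WT SD replicate 2), with overlapping libraries.

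The CD8 chains were low in WT and higher in KO libraries. Cd8a had 1.89, 4.69, 7.13 and 4.36 CPM in CD11c+ KO HFD libraries and 0.737, 0.342, 0.664 and 0.289 CPM in WT. On SD, Cd8a had 1.87, 3.02, 1.80 and 8.67 CPM in CD11c+ KO libraries and 0.182, 0.434, 0.321 and 0.717 CPM in WT. Its ratio of means lay between 6.65 and 9.29 in the 4 comparisons of genotypes, none of which overlapped. Without replicate 4 of the KO SD group it was 5.39 in CD11c+ and 5.17 in CD206+ macrophages on SD. Cd8b1, the beta chain, had 6.04, 3.14, 12.0 and 7.85 CPM in CD206+ KO HFD libraries and 1.99, 0.366, 1.04 and 0.903 CPM in WT. On SD, CD206+ libraries had 3.52, 2.28, 2.43 and 10.4 CPM of Cd8b1 in KO and 0, 0.509, 0.0952 and 0.109 CPM in WT. The WT group was close to the limit of detection: replicate 1 had 0 counts, which allows up to 0.143 CPM (3 counts, counting error only). Ratios of the Cd8b1 means were 13.4 and 10.4 in CD11c+ and 6.75 and 26.1 in CD206+ macrophages, HFD before SD, without overlap. The values on SD rested on single libraries. The 10.4 became 4.48 without CD11c+ KO SD replicate 4. The 26.1 became 15.4 without CD206+ KO SD replicate 4 and 68.5 without CD206+ WT SD replicate 2.

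Cd4 showed a pattern of its own. CD206+ KO libraries had 67.5, 58.7, 51.8 and 50.9 CPM of Cd4 on HFD and 67.1, 90.1, 95.4 and 102 CPM on SD. CD11c+ KO libraries had 25.1, 17.0, 19.97 and 19.1 CPM on HFD and 18.6, 18.5, 13.7 and 26.1 CPM on SD. All 16 KO libraries, at 13.7 to 102 CPM, were above all 16 WT libraries, at 1.09 to 11.2 CPM. WT means were 2.09 ± 0.374 (CD11c+ HFD), 4.45 ± 1.44 (CD206+ HFD), 2.25 ± 0.806 (CD11c+ SD) and 8.11 ± 2.22 CPM (CD206+ SD). KO means were 9.68, 12.9, 8.53 and 10.9 times as high in the same order. In each genotype and diet the 4 CD206+ libraries were above the 4 CD11c+ libraries. Replicates of Cd4 were close: in CD206+ KO libraries on HFD the highest was 1.33 times the lowest, against 4.38 times for the CD3 sum. Per kilobase of exon, Cd4 reached 22.0 CPM in CD206+ KO SD libraries, where Cd3e had 1.57 CPM.

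Cd2 departed furthest. In CD11c+ WT libraries on SD it was at 177, 136, 185 and 205 CPM, and in CD11c+ KO libraries on SD at 61.4, 52.6, 47.5 and 22.6 CPM. The 4 KO libraries were all below the 4 WT libraries, at 0.262 times the WT mean. On HFD the order was the other way round, with 31.9, 65.6, 41.2 and 32.3 CPM in CD11c+ KO and 6.85, 14.1, 8.73 and 8.01 CPM in WT, a ratio of 4.54 without overlap. CD206+ libraries repeated both directions at lower levels, with HFD means of 8.47 ± 5.09 CPM for KO and 2.47 ± 0.604 CPM for WT, and SD means of 4.87 ± 2.64 CPM for KO and 17.9 ± 2.32 CPM for WT. Neither comparison overlapped. CD11c+ macrophages had 3.81 to 9.78 times the Cd2 of CD206+ macrophages in the 4 genotype and diet settings, and every CD11c+ library was higher.

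Counted over the 10 transcripts, KO libraries were all above WT libraries for 8 in CD11c+ HFD, 5 in CD11c+ SD, 9 in CD206+ HFD and 7 in CD206+ SD. Over all genes tested, the share with such a separation was 17.2%, 11.7%, 12.3% and 12.8%. These shares are given as background only, because the 10 were chosen on these levels. Cd2 was the 1 member wholly lower in KO, on SD in both populations, as were 11.7% of all genes in CD11c+ and 14.8% in CD206+ macrophages. Between diets, in WT libraries, Cd3e, Cd2 and Cd5 in CD11c+ and Cd247 and Cd2 in CD206+ macrophages were lower on HFD without overlap, and none was higher. Over all genes, 19.4% were lower and 20.8% higher in this way in CD11c+, and 15.4% and 16.0% in CD206+ macrophages. In KO libraries none of the 10 was separated by diet, where 1.67% of all genes were lower and 1.64% higher in CD11c+, and 1.98% and 2.32% in CD206+ macrophages. The members' counts between diets are close to these shares. HFD with SD comparisons use the same libraries as the comparisons of genotypes.

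Most of the transcripts tended to be high or low together in the replicate libraries of 1 group. After the group mean was removed from the log2 CPM of each of the 32 libraries, the deviations of Cd8a followed those of the CD3 sum with Pearson r = 0.93 and Spearman rho = 0.95, and r = 0.94 without the 2 libraries farthest from the median. Lck had r = 0.91 (rho = 0.92), Cd5 r = 0.86 (rho = 0.85), Cd8b1 r = 0.79 (rho = 0.74) and Cd247 r = 0.65 (rho = 0.66). For the CD3 chains, each set against the sum of the other 2, r was 0.89 for Cd3e, 0.83 for Cd3d and 0.76 for Cd3g. All points share their libraries, and low counts (medians of 20 to 59.5 for these 8) lower r by sampling noise. Cd4 and Cd2 shared little of this variation, with r = 0.26 and r = 0.28, although their median counts of 248 and 336 were the highest of the 10. The median r over the 45 pairs of members was 0.68, from -0.15 for Cd2 with Cd4 to 0.93 for Lck with Cd8a. Over the 28 pairs without Cd2 and Cd4, left out after their values were seen, it was 0.79.

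**Figure D2:**
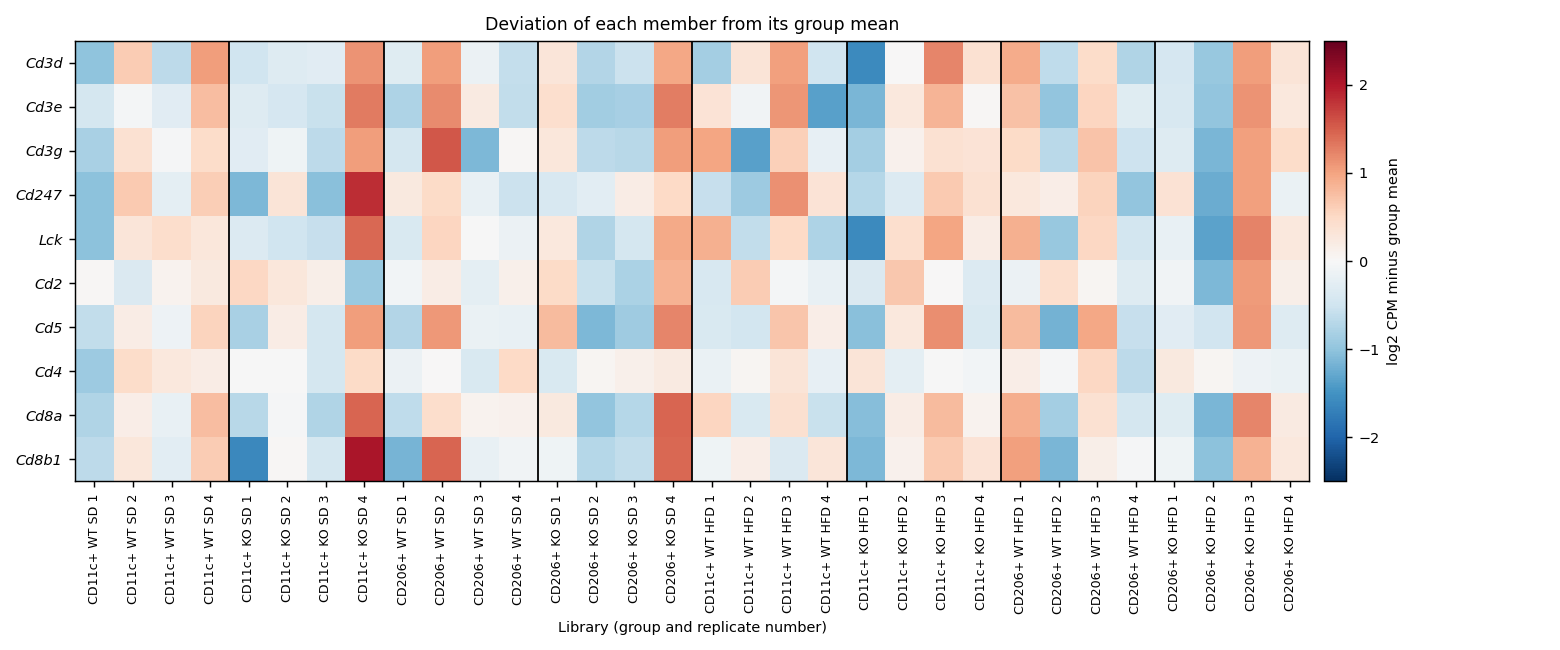
Deviation of log2 CPM from the group mean for the 10 transcripts (rows) in the 32 libraries (columns, grouped by vertical lines); red is above and blue below the group mean. Columns such as KO SD replicate 4 and KO HFD replicate 3 are red in most rows in both populations. Cd4 is paler there, and slightly below its mean in KO HFD replicate 3, and Cd2 is blue in CD11c+ KO SD replicate 4.

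Shared variation was present in both genotypes and tighter in KO, where counts were higher. The median r over the 45 pairs was 0.80 within the 16 KO libraries and 0.55 within the 16 WT libraries. Cd8a followed the CD3 sum with r = 0.98 in KO and 0.89 in WT, and Lck with 0.97 and 0.84. Cd4 had r = 0.015 in KO and 0.42 in WT. Cd2 had r = 0.66 in CD206+ and r = -0.29 in CD11c+ libraries. The highest library of a group was the same for Cd8a as for the CD3 sum in 7 of 8 groups, and for Cd4 in 3 of 8.

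As a ratio to the CD3 sum, the group medians of Lck varied 1.79-fold from the lowest to the highest of the 8 groups. Those of Cd5 varied 3.47-fold, Cd8a 4.17-fold and Cd8b1 4.42-fold. Cd247 varied 13.5-fold and Cd4 16.2-fold, and Cd2 varied 122-fold, from a median of 0.384 to 46.7 times the CD3 sum. Of the 7 members outside the sum, Lck thus changed least in proportion to it, and Cd4 and Cd2 most. For the CD3 chains, each set against the other 2 so that no gene is in its own denominator, the medians varied 1.32-fold for Cd3d, 1.79-fold for Cd3e and 2.65-fold for Cd3g.

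**Figure D3:**
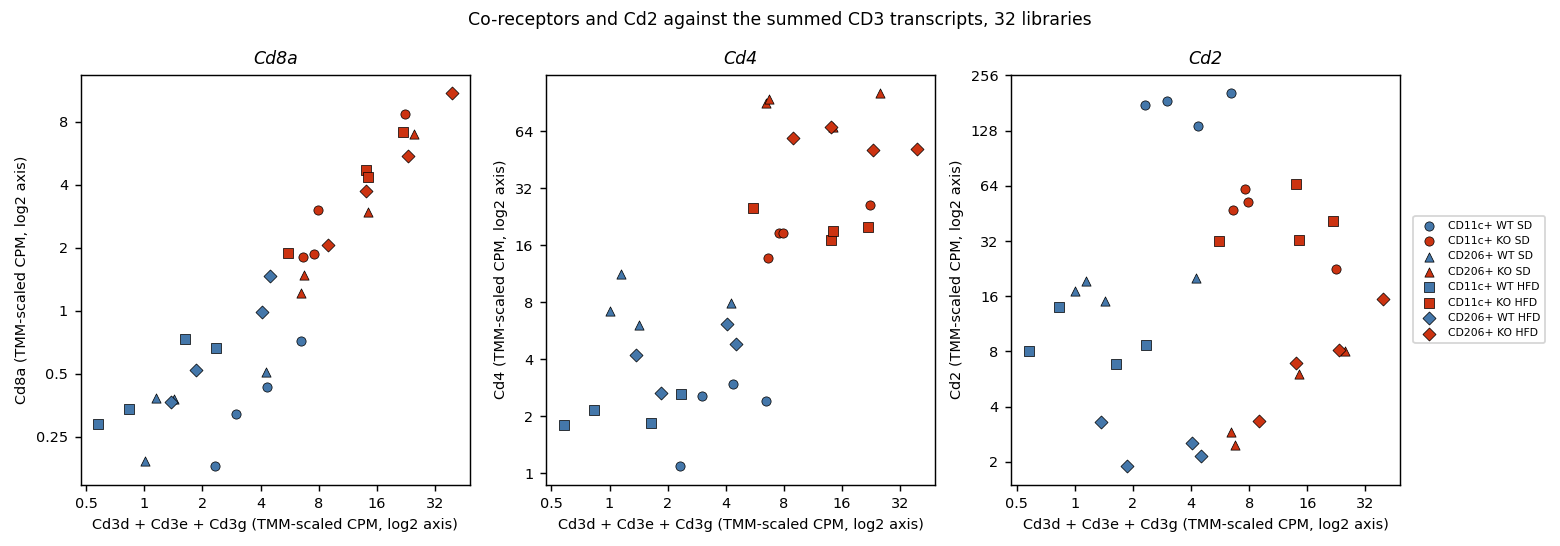
Cd8a, Cd4 and Cd2 against the summed Cd3d, Cd3e and Cd3g in each of 32 libraries, all as TMM-scaled CPM on log2 axes; color marks genotype and shape marks population and diet. Cd8a rises with the sum, with CD11c+ WT SD libraries below the others at a median of 0.104 times the sum, whereas Cd4 and Cd2 form separate levels by group, with Cd2 at 136 CPM or more in the 4 CD11c+ WT SD libraries.

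CD11c+ and CD206+ libraries with the same genotype, diet and replicate number tended to deviate together in the CD3 sum. Over the 16 such pairs, r was 0.63 and rho 0.57, with r = 0.57 without the 2 pairs farthest from the median. The sign of the deviation was the same in 13 of 16 pairs. KO HFD replicate 3 was highest of its group in both populations, with 21.8 CPM for CD11c+ and 39.2 CPM for CD206+ cells, and so was KO SD replicate 4, at 22.4 and 25.0 CPM. In WT the highest library bore a different number in the 2 populations on both diets. CD206+ was the higher of the pair in 10 of 16. Whether a number marks the same mouse is not stated in the labels.

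**Figure D4:**
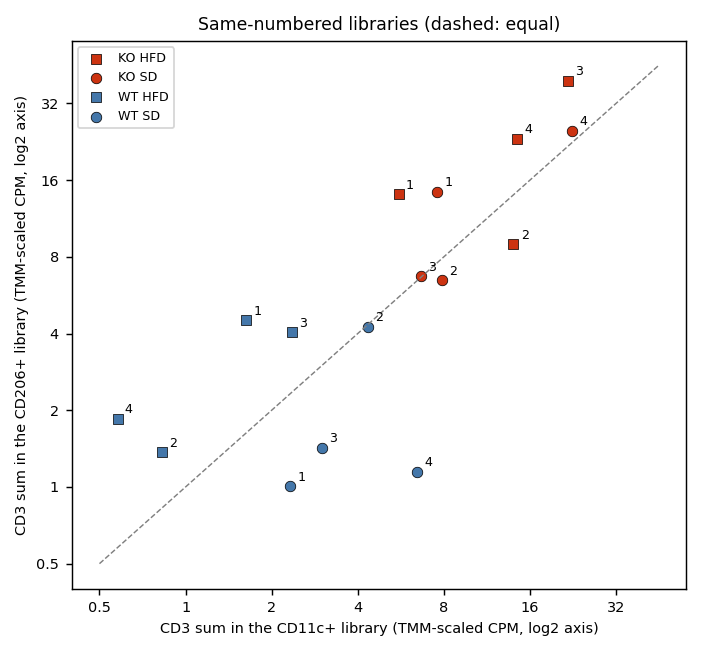
The CD3 sum of the CD206+ library against that of the CD11c+ library with the same genotype, diet and replicate number, in TMM-scaled CPM on log2 axes; labels are replicate numbers and the dashed line marks equal levels. KO pairs lie above and to the right of nearly all WT pairs, with KO HFD 3 and KO SD 4 at the upper right.

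The 10 genes outside the set whose deviations were most like those of the CD3 sum over the 32 libraries were Gimap3 (r = 0.96), Nkg7 (0.89), Tbx21 (0.88), Ms4a4b (0.88), Il2rb (0.87), Ptprcap (0.85), Gimap7 (0.85), Ltb (0.85), Sept1 (0.84) and Lat (0.81). Tbx21 encodes a transcription factor of type 1 lymphocytes, Nkg7 a granule protein of cytotoxic lymphocytes, Il2rb a chain of the receptors for interleukins 2 and 15, and Lat the adaptor that Zap70 phosphorylates. In CD206+ KO HFD libraries Tbx21 was at 3.93, 1.70, 10.96 and 4.59 CPM, beside CD3 sums of 14.1, 8.96, 39.2 and 23.2 CPM. A list of other T cell genes held 58 symbols, of which 48 had a row and 44 were tested; its 10 symbols for T cell receptor chains had no row and were not analysed here. Of the 20 most similar genes 10 were on that list, and of the 100 most similar 28, while the list made up 0.327% of the 13443 genes ranked. These shares are a description, because the list was chosen with earlier results of these data known. Of its 44 tested genes, 32 passed the filter on low counts with the WT libraries alone. The median r was 0.64 over the 44 and 0.0081 over all genes.

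The other T cell genes were compared between genotypes with edgeR's quasi-likelihood test, with p-values adjusted by Benjamini-Hochberg over all 13453 genes. Because their list was chosen with earlier results of these data known, the counts and p-values below are not independent support for the pattern of the members. In CD11c+ macrophages on HFD, 34 of 44 rose in KO and 2 fell, where 18.6% of all genes rose and 19.4% fell. The median log2 fold change of the 44 was 2.29, against -0.02 for all genes. Some of the 44 entered the test through the KO libraries where they were high: 32 passed the filter on the WT libraries alone. Of these 32, in a fit on genes with that property, 24 rose in CD11c+ HFD, 4 in CD11c+ SD, 19 in CD206+ HFD and 13 in CD206+ SD. Gzmk, Ubash3a, Ifng and Sh2d1a, named below, were not among the 32, and their fold changes rest on few WT counts (9 for Gzmk over the 4 CD11c+ WT HFD libraries). They were not the only named genes outside the 32. Of the 43 named pairs of gene and comparison, that fit gave a value for 31. Gzmk, a granzyme of effector and memory CD8 T cells, was at 1.33, 1.97, 4.84 and 1.91 CPM in KO and at 0.211, 0.0976, 0.102 and 0.0482 CPM in WT, and rose by 4.40 ± 0.81 (log2 ± SE, adjusted p = 6.7e-05). Ubash3a, a phosphatase-family regulator of receptor signalling, rose by 4.09 ± 0.95 (adjusted p = 0.0010). Il7r, the interleukin-7 receptor, was among those that fell (-2.12 ± 0.22, adjusted p = 9.3e-09). By list, 11 of 12 signalling genes, 9 of 12 co-stimulatory and co-receptor genes, 8 of 10 transcription factors and 6 of 10 cytokine, receptor and effector genes rose. The summed level of a list did not always follow this count. Group medians of the sums were lower in KO for signalling (72.1 against 120 CPM) and for cytokines, receptors and effectors (57.6 against 107 CPM). They were higher in KO for co-stimulation and co-receptors (23.1 against 8.43 CPM) and for transcription factors (29.4 against 10.3 CPM). KO and WT sums overlapped in none of these lists.

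In CD206+ macrophages on HFD, 27 of 44 rose and 2 fell, where 10.5% of all genes rose and 11.3% fell, and the median log2 fold change was 1.99. Gzmk rose by 3.81 ± 0.70 (adjusted p = 0.00012), Ifng, the cytokine interferon gamma, by 3.38 ± 0.92 (adjusted p = 0.0075), and Bcl11b, a factor that T cells need for their identity, by 3.23 ± 0.82 (adjusted p = 0.0041). Gzmk and Ifng did not pass the filter on the WT libraries alone, and Gzmk had 15, 4, 5 and 4 counts in these WT libraries. Il7r fell by 3.22 ± 0.25 (adjusted p = 1.1e-10). Without KO HFD replicate 3 of the CD206+ libraries, 16 rose in place of 27.

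On SD the differences were fewer. In CD206+ macrophages 18 of 44 rose and 2 fell (11.8% and 12.7% of all genes), with a median log2 fold change of 1.43. Gzmk rose by 4.40 ± 0.81 (adjusted p = 0.00015), Ifng by 3.88 ± 0.97 (adjusted p = 0.0035) and Sh2d1a, the adaptor SAP, by 3.62 ± 0.89 (adjusted p = 0.0033). Gzmk, Ifng and Sh2d1a did not pass the filter on the WT libraries alone, and Gzmk had 0, 4, 5 and 0 counts in these WT libraries. Il18r1, the interleukin-18 receptor, fell by 2.20 ± 0.60 (adjusted p = 0.0071), and Cd28, the main co-stimulatory receptor, fell by 1.27 ± 0.38 (adjusted p = 0.015). Without CD206+ KO SD replicate 4, 10 genes rose in place of 18 and Ifng lost its call (adjusted p = 0.079). The call of Cd28 was lost without CD206+ KO SD replicate 2, KO SD replicate 3 or WT SD replicate 4 (adjusted p 0.055 to 0.099), and the number that fell was then 1.
In CD11c+ macrophages on SD, 6 of 44 rose and 1 fell (13.2% and 13.6% of all genes), with a median log2 fold change of 0.55. The number that rose is close to the share of all genes, and the number that fell is below its share. Gzmk rose by 3.86 ± 0.80 (adjusted p = 0.00052), Gzmb, another granzyme, by 2.80 ± 0.76 (adjusted p = 0.0060) and Sh2d1a by 2.23 ± 0.82 (adjusted p = 0.042). Gzmk and Sh2d1a did not pass the filter on the WT libraries alone, and Gzmk had 0, 5, 3 and 2 counts in these WT libraries. Il7r fell by 0.66 ± 0.22 (adjusted p = 0.026). Without CD11c+ KO SD replicate 4 only 2 rose, and Gzmb was not called (adjusted p = 0.067). Without CD11c+ WT SD replicate 1, 3 rose. The calls of Sh2d1a and Il7r were lost when any 1 of 5 and any 1 of 4 libraries was left out (adjusted p 0.074 to 0.19 and 0.051 to 0.13), and the number that fell ran from 0 to 2. Without KO HFD replicate 3 and KO SD replicate 4 of both populations, the 4 KO libraries with the highest CD3 sums of their groups, 33, 2, 21 and 13 genes rose in CD11c+ HFD, CD11c+ SD, CD206+ HFD and CD206+ SD. This alternative was chosen after seeing the data.

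**Figure D5:**
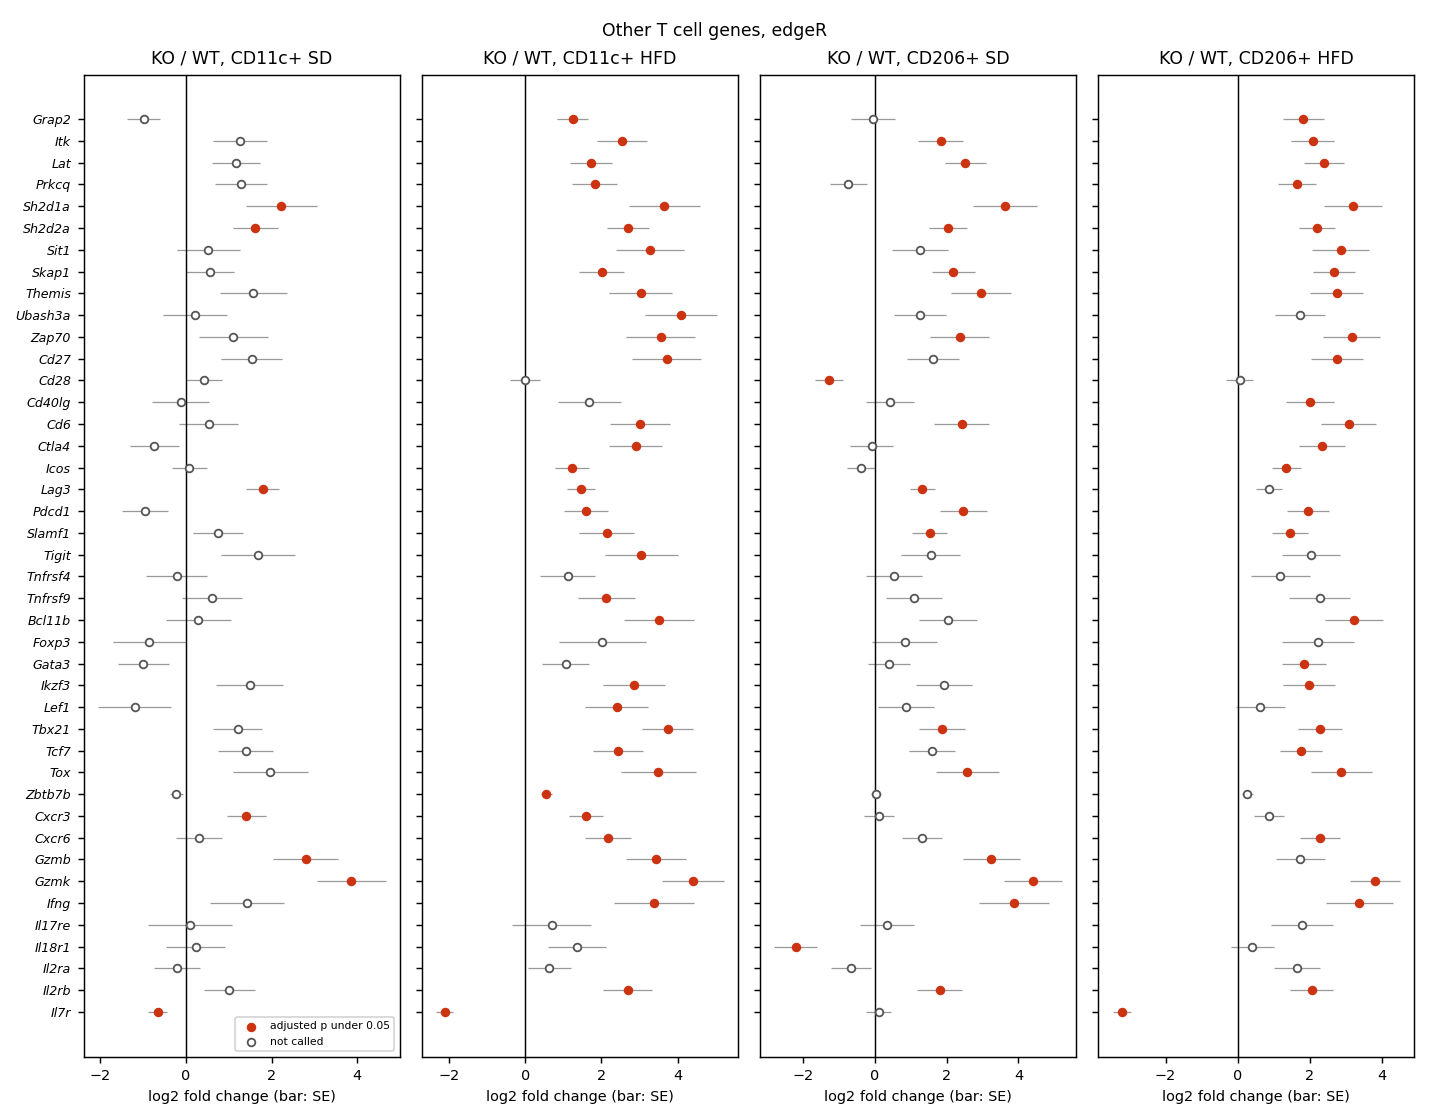
Log2 fold change of KO over WT (points, bars are SE of the edgeR fit) for other T cell genes tested in 4 comparisons; filled points passed an adjusted p of 0.05. Most genes lie to the right of 0 on HFD, with Il7r on the left. A few genes are not drawn.

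Il7r did not move with the CD3 chains. In CD11c+ libraries on HFD, Il7r was at 22.0, 24.0, 19.1 and 24.5 CPM in KO and at 95.7, 106, 80.7 and 107 CPM in WT, where the CD3 sum was lowest. Every KO library was below every WT library. Which cells held this transcript was not tested.

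Diet was tested within each genotype. In CD11c+ WT macrophages 14 of the 44 fell on HFD and 3 rose, where 22.6% of all genes fell and 23.8% rose, with a median log2 fold change of -1.14. Ctla4, an inhibitory receptor, fell by 3.44 ± 0.69 (adjusted p = 0.00013), and Foxp3, the factor of regulatory T cells, fell by 3.52 ± 1.06 (adjusted p = 0.0070). Il7r rose by 1.99 ± 0.22 (adjusted p = 1.2e-08) and Cd28 by 1.14 ± 0.42 (adjusted p = 0.025), the last lost when any 1 of 5 libraries was left out (adjusted p 0.051 to 0.071). The number that fell was 9 without CD11c+ WT HFD replicate 2 and 9 without CD11c+ WT SD replicate 2. In CD206+ WT macrophages 2 rose and 3 fell, where 14.2% of all genes rose and 13.5% fell. Il7r rose by 4.24 ± 0.28 (adjusted p = 1.1e-11). Il2ra fell by 2.40 ± 0.62 (adjusted p = 0.0044), Il18r1 fell by 1.79 ± 0.58 (adjusted p = 0.020) and Prkcq, a kinase of receptor signalling, fell by 1.66 ± 0.53 (adjusted p = 0.018). Leaving out CD206+ WT HFD replicate 1 or 3 or WT SD replicate 1 ended the call of Il18r1 (adjusted p 0.058 to 0.074), and leaving out WT SD replicate 2 or 4 that of Prkcq (adjusted p 0.052 to 0.056).

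Within KO mice, edgeR called none of the 44 between diets in either population. At an unadjusted p under 0.05, 2 rose in CD11c+ and 5 in CD206+ macrophages and 0 fell, and DESeq2 also called 0. Among all genes edgeR called 0.00743% higher and 0.0% lower in CD11c+, and 0.0% in each direction in CD206+ KO macrophages. The effect of genotype differed between diets, by the interaction term of the same fit, for 11 of the 44 in CD11c+ (9 higher and 2 lower on HFD, beside 13.9% and 15.0% of all genes) and 5 of the 44 in CD206+ macrophages (3 and 2, beside 5.23% and 6.63%). The counts in CD206+ macrophages are close to those shares. The 9 became 15 without CD11c+ KO SD replicate 4, and the 3 became 0 without CD206+ KO HFD replicate 3.

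The 44 were also compared between CD11c+ and CD206+ macrophages, and Grap2 and Il7r were higher in CD11c+ in all 4 settings. Grap2, an adaptor that joins Lat to its partners, was higher by 2.92, 5.31, 2.34 and 4.37 on the log2 scale in WT HFD, WT SD, KO HFD and KO SD (adjusted p 0.00020, 3.1e-10, 8.2e-05 and 3.0e-08). Il7r was higher by 1.97, 4.22, 3.07 and 3.46 (adjusted p 1.8e-07, 3.3e-13, 2.9e-10 and 7.1e-11). In all, 3 were higher and 3 lower in WT HFD (11.7% and 8.7% of all genes), 8 and 5 in WT SD (30.2% and 33.5%), 3 and 4 in KO HFD (23.3% and 22.5%), and 3 and 2 in KO SD (25.6% and 26.1%). With same-numbered libraries of both populations as a replicate block, 4 were higher and 8 lower in WT HFD. Without TMM scaling 6 were higher and 7 lower in WT SD, where the median of all genes was -0.25 on the log2 scale.
Slamf1, a co-receptor of lymphocytes, was lower in CD11c+ in WT HFD (-2.88 ± 0.68, adjusted p = 0.0028), KO HFD (-2.19 ± 0.53, adjusted p = 0.0014) and KO SD (-2.03 ± 0.52, adjusted p = 0.0017). In WT SD the lower genes with the largest changes were Prkcq (-2.98, adjusted p = 7.0e-05), Il18r1 (-2.73, adjusted p = 0.00041) and Cd28 (-2.56, adjusted p = 4.5e-06), and in KO HFD Icos, a co-stimulatory receptor, was lower by -1.25 (adjusted p = 0.011). Weaker calls were those of Ubash3a (-3.03, adjusted p = 0.030) and Il18r1 (-1.99, adjusted p = 0.049) in WT HFD, Cd40lg (-1.59, adjusted p = 0.048) in KO HFD and Il17re (-2.07, adjusted p = 0.044) in KO SD. They were lost when any 1 of 4, 25, 21 and 10 libraries was left out (adjusted p 0.063 to 0.18, 0.050 to 0.16, 0.051 to 0.13 and 0.050 to 0.12). Leaving out 1 library moved the number lower to between 1 and 4 in WT HFD, 2 and 4 in KO HFD and 1 and 6 in KO SD, the 1 in WT HFD without CD11c+ replicate 2 or 4 and the 6 without CD11c+ KO SD replicate 4.

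Markers of other cells that a macrophage gate could hold were summed in each library and set beside the CD3 sum, again as deviations from the group mean. For comparison, the summed T cell lists, without the members, had r = 0.67 for signalling (0.73 in KO, 0.61 in WT) and 0.83 for co-stimulation and co-receptors (0.95, 0.69). It was 0.75 for transcription factors (0.96, 0.43) and 0.67 for cytokines, receptors and effectors (0.96, 0.087). The summed level of 12 NK cell markers followed the CD3 sum with r = 0.56, at 0.87 in KO and 0.10 in WT libraries. Of these, Klra4 was at 0 in all 32 libraries and Ncr1, which defines NK cells, had 3 to 22 counts over the 4 libraries of any group, whereas Klrk1 reached 97.5 ± 10.9 CPM in CD11c+ WT SD libraries. NK list sums ranged from 50.8 to 93.9 CPM in CD11c+ KO HFD against 7.37 to 13.6 CPM in WT, and from 71.4 to 108 CPM in CD11c+ KO SD against 90.4 to 123 CPM in WT. In CD206+ libraries they were 18.2 to 55.1 against 3.57 to 7.40 CPM on HFD and 21.5 to 53.3 against 7.58 to 10.2 CPM on SD. Of the 8 NK genes tested, 7, 2, 3 and 4 rose in KO and 0, 0, 0 and 1 fell in CD11c+ HFD, CD11c+ SD, CD206+ HFD and CD206+ SD, where 18.6%, 13.2%, 10.5% and 11.8% of all genes rose. In the same order, 19.4%, 13.6%, 11.3% and 12.7% of all genes fell. Other lists moved too. On HFD, 8 of 8 conventional dendritic cell genes rose in CD11c+ KO macrophages. In CD206+ KO macrophages on HFD, 6 of 7 adipocyte and 3 of 5 neutrophil genes rose. Of 8 stromal genes, 7 fell and 1 rose in CD11c+ and 8 fell in CD206+ on HFD. There, 4 and 0 of 8 endothelial and 2 and 1 of 6 mast cell genes fell, CD11c+ first, and none of these rose. The part of NK cells in the levels of Cd247, Lck and Cd2 was not tested.
The 10 B cell markers had r = 0.51 with the CD3 sum, 0.61 in KO and 0.44 in WT. Their sums ran from 15.7 to 34.2 CPM in CD11c+ KO HFD against 16.01 to 31.1 CPM in WT, and the ranges of KO and WT also overlapped in CD206+ HFD (24.6 to 42.9 and 18.3 to 48.2 CPM), CD206+ SD (22.1 to 33.1 and 20.2 to 31.0 CPM) and CD11c+ SD (12.2 to 16.9 and 9.68 to 17.1 CPM). Pax5 was at 0 in 16 or more libraries. Over all libraries r was -0.11 for conventional dendritic cells, 0.08 for plasmacytoid dendritic cells and 0.0032 for macrophages, but it differed by genotype. Plasmacytoid dendritic cells had r = -0.55 in KO and 0.69 in WT, macrophages -0.51 and 0.57, and conventional dendritic cells 0.17 and -0.43. By group, the sum of the conventional dendritic cell list was highest where Cd2 was: 294 to 595 CPM in CD11c+ WT SD, against 108 to 256 CPM in CD11c+ KO SD, 88.1 to 265 CPM in CD11c+ KO HFD and 30.2 to 110 CPM in CD11c+ WT HFD. It was 248 to 321 CPM in CD206+ WT SD and 23.9 to 46.4 CPM in the other CD206+ groups. Cd209a made up most of it, with a mean of 294 ± 110 CPM in CD11c+ WT SD and 78.9 ± 36.3 CPM in CD11c+ KO SD. Clec9a went the other way, with 1.95 ± 0.722 CPM in WT and 4.57 ± 1.70 CPM in KO. Of the 8 genes 3 rose and 1 fell in KO there, beside 13.2% and 13.6% of all genes. Dendritic cell markers were not alone in being highest in CD11c+ WT SD. The sums of the NK cell, type 2 innate lymphoid cell and macrophage lists also had their highest group medians in CD11c+ WT SD, at 112, 266 and 32943 CPM. The part of these cells in Cd2, Cd4 and Cd8a levels was not tested, and no library was of T cells alone.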

How the data were processed

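Bulk RNA-seq counts per gene were deposited by the authors as 1 file per library, unnormalized. Per the submitters' processing notes, TopHat2 2.1.0, SAMtools 0.1.18, Trimmomatic 0.35 and FastQC 0.11.4 were used on mm10 (GRCm38), with no roles stated. The sources used here do not name the read counter, its strand setting or its treatment of shared reads. The 5 entries naming no gene were left out of library sizes. They include reads on no feature, which came to 5.16% to 11.1% of all counts of a library, the 5 entries included.

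Groups and replicate numbers came from the sample titles. Replicates differed by more than sampling noise (chi-square per degree of freedom 10.9 to 68.0). In edgeR 4.0.16 (R 4.3.3), genes were kept by filterByExpr (minimum count 10), scaled by TMM and fitted with the quasi-likelihood test over all 32 libraries with a mean per group. The threshold was an adjusted p of 0.05. The script was tested on simulated data. DESeq2 1.42.0, other scalings and filters, blocks and the removal of each library were tried as alternatives. Log2 CPM used a prior count of 2.

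The T cell transcripts, the gene lists and the tests were chosen with earlier results of these data known. Of the other T cell genes, up to 3 higher and 3 lower with the largest called change were named per comparison; a few genes that enter the counts are not reported here by name. The 44 tested include genes that passed the filter through 1 genotype: 32 passed on the WT and 43 on the KO libraries alone. Same-numbered CD11c+ and CD206+ libraries deviated together (every r above 0.1) in WT HFD (0.23 to 0.47), WT SD (0.14 to 0.28) and KO SD (0.14 to 0.32), where the pairing therefore comes from the data, and not in KO HFD (-0.05 to 0.33) or between genotypes or diets.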

Additional observations from a re-analysis of the deposited data

Results flagged for a closer look

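Single libraries stood far from the other 3 of their group in 7 of 88 sets of 4 values. The criterion was the gap to the nearest library relative to the group's range (the limit of Dixon's test at 95%). That limit is passed by about 1 in 20 independent sets. The 88 sets share libraries and vary together, so the 7 is a description and was not tested against that rate. CD11c+ KO SD replicate 4 was high in Cd3d (4.19 CPM, others 1.30 to 1.52), Cd3e (11.5, others 3.13 to 3.69), Lck (12.5, others 3.03 to 3.58) and the CD3 sum (22.4, others 6.63 to 7.89). CD206+ KO SD replicate 4 was high in Cd8b1 (10.4 CPM, others 2.28 to 3.52), and CD206+ KO HFD replicate 3 in Cd5 (5.33 CPM, others 1.75 to 2.01). CD206+ WT SD replicate 2 was high in the CD3 sum (4.26 CPM, others 1.00 to 1.43). The Cd3d, Cd3e and CD3 sum values of 1 library are not independent of each other.

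Among the named T cell genes, the effect of genotype differed between diets in CD11c+ macrophages by the interaction term of the edgeR fit (log2 effect on HFD minus that on SD). It was higher on HFD for Ubash3a (3.87, adjusted p = 0.018), Ctla4 (3.65, adjusted p = 0.0025), Bcl11b (3.23, adjusted p = 0.042) and Grap2 (2.24, adjusted p = 0.0027). It was lower for Il7r (-1.46, adjusted p = 0.00054). In CD206+ macrophages it was higher for Il18r1 (2.61, adjusted p = 0.040), Prkcq (2.38, adjusted p = 0.031) and Icos (1.73, adjusted p = 0.038) and lower for Il7r (-3.33, adjusted p = 4.5e-06). Over all 44 genes, the number higher on HFD went from 9 to 15 in CD11c+ without CD11c+ KO SD replicate 4, and from 3 to 0 in CD206+ without CD206+ KO HFD replicate 3.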

How the results depend on the processing

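The counts of called T cell genes over each family of comparisons, the group means of the CD3 sum and the median r of the members stayed within 1.5 times or 1 SD of their values in all 212 recomputed values. Called pairs of gene and comparison numbered 92 between genotypes (67 to 99), 22 between diets (16 to 25), 31 between populations (26 to 44) and 18 among interactions (17 to 23). The replicate number as a block over all groups gave 91, 22, 29 and 18, and same-numbered libraries as a block across populations gave 44 between populations, of which KO HFD, not paired by its r, had 3 higher and 6 lower. That block ended the calls of Il18r1 in WT HFD (adjusted p = 0.058) and Il17re in KO SD (adjusted p = 0.062). The median r over pairs of members was 0.61 to 0.72 with 1 library left out, 0.63 with a prior count of 0.5 and 0.70 with 5. Of 43 named gene and comparison pairs, 31 kept direction and call in every alternative that gave them a value; genes that a filter removed, and comparisons that a block did not cover, gave none. The other 12 lost the call in 97 recomputed values in all, and none reversed. Restricting the test to genes that pass the filter on the WT libraries, an alternative chosen after seeing the data, gave 67, 18, 28 and 17. Depth limits the WT values most: Cd3d had 1 to 26 counts per WT library and Cd8b1 0 to 46.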

Other observations

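Because Cd4 and Cd2 had the lowest r with the CD3 sum over the 32 libraries, the genes most like each of them over the 32 deviations were listed, a step chosen after their values were seen. Those most like Cd4 were Serpina3g (r = 0.71), Gm12250 (0.67), Phyhd1 (0.67), Serpina3f (0.66), Tlr7 (0.66), Mertk (0.66), Ly6i (0.64), Cd38 (0.64), H2-L (0.63) and Clec5a (0.63). Mertk is a receptor by which macrophages take up dying cells and Tlr7 a sensor of RNA. Among the 10 most like Cd2 were Pkp3 (r = 0.75), Adgrg5 (0.72), 9130401M01Rik (0.69), Atp2a3 (0.67), L1cam (0.66), Il9r (0.65), Hebp2 (0.63), Hepacam2 (0.62) and Otof (0.61). None of the 10 genes in either group was on the T cell lists. Il9r was on the list of type 2 innate lymphoid cells, and Mertk on that of macrophages. All of these coefficients were below that of Gimap3 with the CD3 sum (0.96), and they come from the same 32 libraries.

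B cell genes stood among those most like the CD3 sum. Cd79a, a chain of the B cell receptor, ranked 29th of 13443 (r = 0.72) and Ms4a1, which encodes CD20, 43rd (r = 0.67). In CD206+ WT HFD libraries Cd79a had a mean of 4.23 ± 4.95 CPM, from 1.19 to 11.6, beside 4.16 ± 2.43 CPM in KO.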
